A study of Mus musculus with 57 samples.

Results

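The livers of mice given acetaminophen were compared directly with the livers of mice given thioacetamide, 24 h after a dose by gavage. The 11 mice, 6 with acetaminophen (APAP) and 5 with thioacetamide (TAA), were taken by their treatment label from the 57 mice of a series of liver injury models that was collected to assess a method for estimating cell types from bulk liver RNA. The 13 mice given 0.5 % methylcellulose by gavage served only to tell which of the 2 groups departed from vehicle. All were wild-type C57BL/6JJcl males, 6 weeks old before 1 week of acclimatisation and fasted for 12 h before dosing, with the same route and time. Each library was mRNA from the outer left lateral lobe of a perfused liver, and each sample is labelled as a separate mouse. The labels state the dose only as a volume per body weight, equal in all groups, and name methylcellulose, saline and corn oil as the vehicles chosen by compound. The groups are therefore compared as dosed, not at matched doses, and the vehicle group may not hold the solvent that either compound was given in.

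Acetaminophen and thioacetamide both harm the liver after hepatocytes have converted them. Cytochrome P450 enzymes, Cyp2e1 above all, oxidise acetaminophen to a quinone imine that glutathione captures until it runs out. Cyp2e1 and flavin monooxygenases oxidise thioacetamide to S-oxides that bind proteins and lipids. These enzymes are most abundant in the hepatocytes around the central vein, which are the cells both compounds kill first.

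The libraries held 16913744 to 24716360 estimated counts in the acetaminophen mice (median 23033054), 22190371 to 30463927 in the thioacetamide mice (median 25073270) and 15188909 to 28093184 in the vehicle mice (median 20337407). Mitochondrially encoded genes took 9.21% to 19.2%, 10.8% to 24.4% and 7.48% to 21.8% of them. Levels are given as CPM, the count relative to the size of the library after scaling by trimmed mean of M values (TMM), and are compared between mice, not between genes. In bulk liver, fewer cells of a type and less RNA per cell cannot be told apart. The hepatocyte markers were abundant in both groups and none was called between them. Albumin, Alb, read 41014 to 53893 CPM (median 44780.2) with acetaminophen and 41414 to 64033 with thioacetamide. The log2 fold changes of the apolipoprotein gene Apoa1 (0.29), the thyroxine carrier gene Ttr (-0.40), the protease inhibitor gene Serpina1c (0.21) and the urea cycle gene Cps1 (0.53) lay on either side of 0.

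Acetaminophen replicate 1, called APAP 1 below, stood apart from the other acetaminophen livers. Its correlation with them was 0.846 to 0.859, below the 0.888 to 0.956 among those 5 and also below its own correlation of 0.879 to 0.897 with the thioacetamide livers (Pearson's r over log2 values of genes within pairs of libraries). It had the most Glul (1003 CPM) and Mt1 (18480.1 CPM) of its group. The other 5 also differed among themselves. APAP 8 and APAP 11 held 20.7 and 26.4 CPM of Cyp2e1 and 7224 and 5288 CPM of the metallothionein Mt1, while APAP 2, 4 and 6 held 526, 366 and 1128 CPM of Cyp2e1 and 348, 478 and 504 CPM of Mt1. The thioacetamide mice varied less, with a root mean square SD per gene of 0.528 on the log2 scale against 0.671 with acetaminophen and 0.562 without APAP 1. The fold changes of genes below are therefore given with APAP 1 and without it.

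The distance of a liver from vehicle was taken as the mean absolute difference of its log2(CPM + 1) values from the vehicle mean, over 12289 genes. The thioacetamide livers stood at 0.720, 0.678, 0.751, 0.786 and 0.744 for replicates 1, 3, 6, 7 and 8. The acetaminophen livers ran from 0.402 to 0.914 (median 0.552), with APAP 1 the farthest of all 11 and the next at 0.690, and the vehicle livers from 0.236 to 0.406. The mean distance was higher by 0.140 with thioacetamide, which did not pass an exact two-sided permutation test over the 462 divisions of the 11 mice (p = 0.147). Without APAP 1 the difference was 0.204 (exact permutation p = 0.0159).

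**Figure D1:**
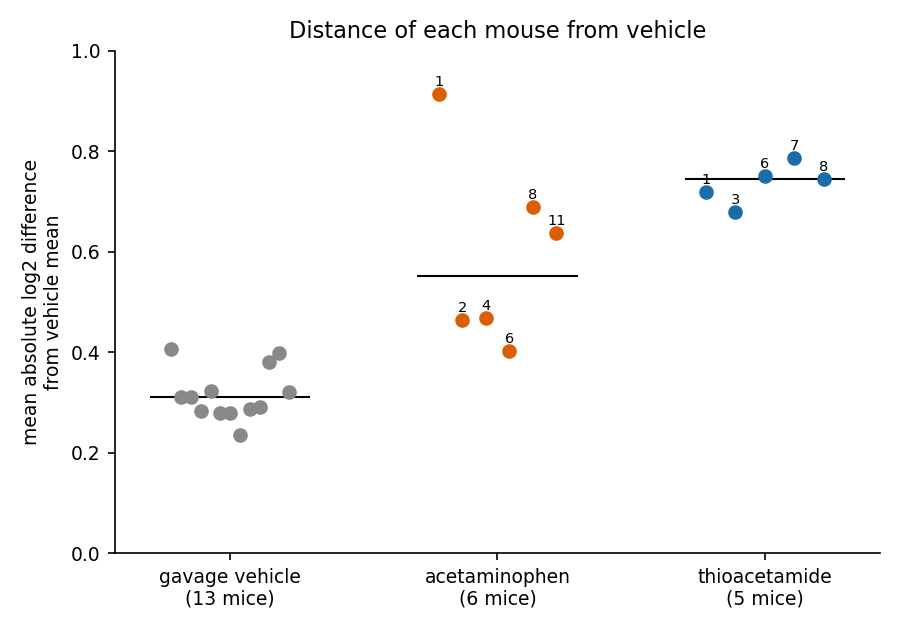
Distance of each liver from the vehicle mean (y axis, mean absolute difference in log2(CPM + 1)) for 13 vehicle, 6 acetaminophen and 5 thioacetamide mice. Points are mice, numbers are replicate numbers and bars are group medians. The thioacetamide livers lie together between 0.678 and 0.786, and the acetaminophen livers spread from 0.402 to 0.914.

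Of 14013 genes tested, 367 (2.62%) were called between the 2 toxicants at an adjusted p under 0.05 in edgeR's quasi-likelihood test with Benjamini-Hochberg adjustment, 226 higher with thioacetamide (1.61%) and 141 higher with acetaminophen (1.01%). The median absolute log2 fold change of the called genes was 1.36 and the smallest 0.60, while the median over all genes tested was -0.04 (thioacetamide minus acetaminophen, as for every fold change between the toxicants here). Among the called genes, 298 had no overlap between the mice of the 2 groups, against 4.32% of all genes tested. The count rested on single livers. Without APAP 1 it was 2002 of 13899 genes (14.4%), 1111 higher with thioacetamide (7.99%) and 891 higher with acetaminophen (6.41%), and these held all 364 of the first set that were tested. These shares of all genes are the background of every count between the toxicants in the lists below, with all mice and without APAP 1. It was 123, 85, 91 and 192 without APAP 2, 4, 6 and 11, and 174, 67, 82 and 64 without TAA 3, 6, 7 and 8. In all 11 fits that left out 1 mouse, 57 genes stayed called, 49 higher with thioacetamide and 8 higher with acetaminophen. Of the genes named below, Acot1, Ehhadh, Cyp4a14, Eif4a2, Rpn1, Apcs, Plk2, Rbm38, Arc, Gzmm, Zfp296, Nop56, Ddx21, Nop2, Rrm2, Trp53inp2, Col27a1, Aldh3a2, Rdh16, Ngfr, Polr2a, Sirt1, Egln3, Gtpbp4, Tcp1, Slc36a1, Sfxn1, Hist1h1a, Hist1h1e, Hist1h4c, Gm22748 and Gm45184 were among these, and the other called genes lost their call in at least 1 such fit.

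Thioacetamide departed from vehicle in more of the called genes than acetaminophen did. Against vehicle, 7247 of 14360 genes (50.5%) were called with thioacetamide, 26.4% higher and 24% lower, and 4436 of 13939 (31.8%) with acetaminophen, 17.3% higher and 14.6% lower. These shares of all genes are the background of the counts against vehicle in the lists below. Both comparisons share the 13 vehicle mice. Of the 367 genes, 225 (61.3%) were called against vehicle with thioacetamide and not with acetaminophen, which is meant by departing with thioacetamide alone. Of these 225, 38 were too low to be tested between acetaminophen and vehicle, Arc, Gzmm, Ereg and the histone genes named below among them. Of the 328 genes tested in both vehicle comparisons, 187 (57.0%) departed with thioacetamide alone. The share of 61.3% ran from 46.9% to 73.1% over the other settings with more than 1 called gene. Another 100 genes departed the same way with both, 96 of them further with thioacetamide. Acetaminophen alone departed for 25 genes, 13 of which fell and 12 of which rose. For 14 genes the toxicants departed in opposite directions, 9 up and 5 down with thioacetamide. The remaining 3 genes, P4ha2, Sec61g and Gm48684, were called against vehicle with neither.

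**Figure D2:**
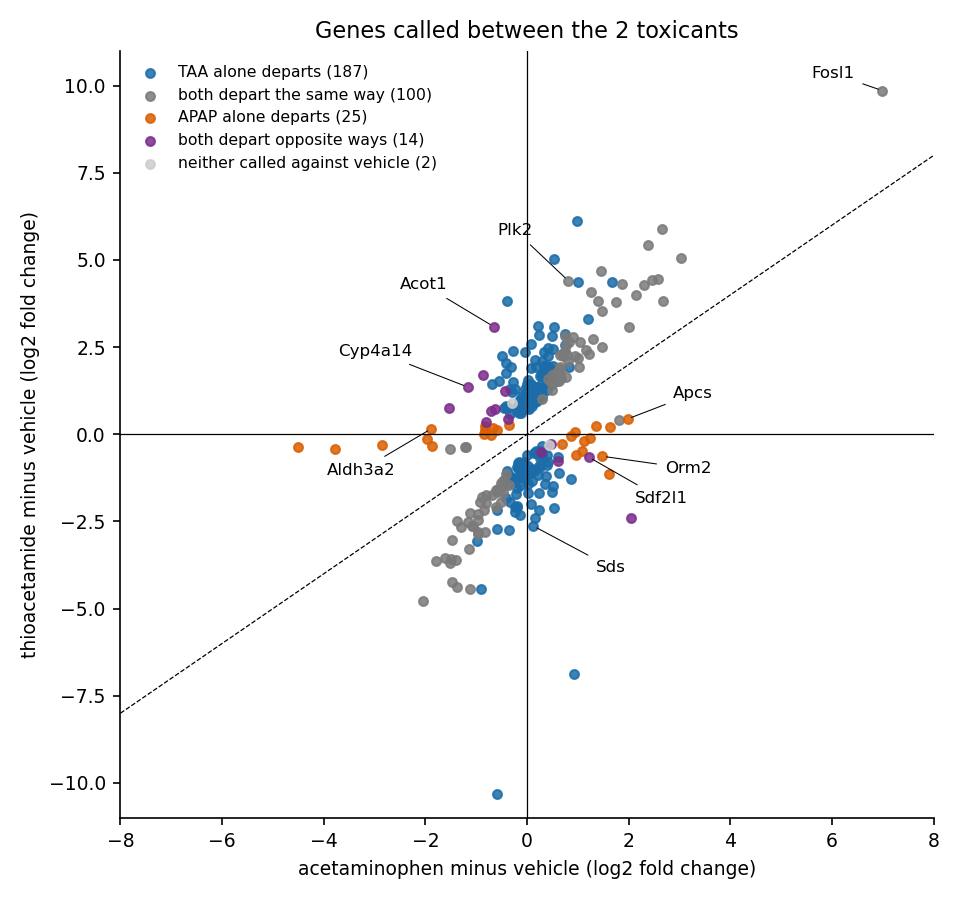
Log2 fold change from vehicle with acetaminophen (x axis) and with thioacetamide (y axis) for the 328 called genes that were tested in both vehicle comparisons. Colours give the side that departed and the dashed line marks equal change. The axes share the vehicle mice. Most points lie nearer to the y axis than to the dashed line, and the 14 genes with opposite departures lie in the upper left and lower right.

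The enzymes that activate the 2 compounds were not among the called genes: 0 of 16 bioactivation genes passed in edgeR (median log2 fold change 0.38), with 2 at an unadjusted p under 0.05 and 0 in DESeq2 or limma. Cyp2e1 read 20.7 to 2571 CPM (median 446) with acetaminophen, 4048, 1645, 1968, 1080.3 and 1799 CPM in the 5 thioacetamide mice (in the order of replicates 1, 3, 6, 7 and 8, as throughout) and 1761 to 3391 with vehicle. The groups overlapped, and the fold change was 1.42 ± 0.95 (SE; adjusted p = 0.451), or 2.34 without APAP 1 (adjusted p = 0.112). Where levels are paired below, those with acetaminophen stand before those with thioacetamide, and parentheses hold the log2 fold change between them ± SE. Cyp1a2 (1.34 ± 0.90, 1.38 without APAP 1) and Cyp3a11 (0.49 ± 0.76, 0.58 without APAP 1), which also oxidise acetaminophen, overlapped as well. Both were lowest in APAP 8 and APAP 11, with 3.02 and 3.55 CPM of Cyp1a2 and 26.9 and 22.8 CPM of Cyp3a11. Against vehicle, 10 of the 16 fell with acetaminophen (14.6% of all genes), and 10 fell (24%) and 2 rose (26.4%) with thioacetamide.

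Among 25 genes of conjugation, 1 was higher (1.61% of all genes) and 1 lower (1.01%) with thioacetamide, and without APAP 1 there were 3 higher (7.99%) and 1 lower (6.41%). Ugt1a1, which attaches glucuronic acid to bilirubin and drugs, read 66.6 to 123 CPM (median 72.5) with acetaminophen and 281, 157, 164, 133 and 183 CPM with thioacetamide. It lay below the vehicle range of 207 to 299.7 CPM in every acetaminophen mouse and did not overlap between the toxicants (1.07 ± 0.25, adjusted p = 0.044, 1.20 without APAP 1). Ggt6, a member of the gamma-glutamyltransferase family, read 6.65 to 14.6 CPM (median 9.44) with acetaminophen and 3.17, 5.00, 3.41, 2.73 and 2.52 CPM with thioacetamide. It fell from vehicle with both and further with thioacetamide (-1.57 ± 0.27, adjusted p = 0.0154, -1.62 without APAP 1). None of 25 tested antioxidant targets of NRF2 was called between the toxicants in edgeR (median 0.47; 6 at an unadjusted p under 0.05, 0 in DESeq2 or limma), nor any of 10 metallothionein and zinc transporter genes (1 at an unadjusted p under 0.05, 0 in DESeq2 or limma). Without APAP 1, 8 of the NRF2 targets were higher with thioacetamide (7.99% of all genes).

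Fatty acid oxidation held the largest opposite departures. Of 22 genes for oxidation, ketone body formation and lipid droplets, 4 were higher with thioacetamide (1.61% of all genes) and none lower (median 0.37; 6 higher without APAP 1, against 7.99% of all genes, median 0.31), and 7 had thioacetamide mice above all acetaminophen mice (2.78% of all genes tested). Acot1 (ENSMUSG00000072949), which releases fatty acids from coenzyme A in the cytosol, read 6.86 to 23.7 CPM (median 11.1) with acetaminophen, 243, 201, 196, 121 and 153 CPM with thioacetamide and 14.7 to 32.3 CPM with vehicle. Every thioacetamide mouse lay far above every other mouse (3.73 ± 0.34, adjusted p = 0.000337, 3.97 without APAP 1). Acot1 fell from vehicle by 0.66 on the log2 scale with acetaminophen and rose by 3.09 with thioacetamide. It has close paralogs in the same gene cluster, and reads shared with them could be divided by the authors' counting.

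Ehhadh (ENSMUSG00000022853), the bifunctional enzyme of peroxisomal oxidation, read 32.99 to 150.03 CPM (median 71.9) with acetaminophen and 682, 459, 504, 416 and 417 CPM with thioacetamide, against 106 to 226 CPM with vehicle. The lowest thioacetamide mouse held more than the highest vehicle mouse (2.57 ± 0.39, adjusted p = 0.00813, 2.42 without APAP 1). Cyp4a14, an omega-hydroxylase of fatty acids, read 88.2 to 525 CPM (median 198) with acetaminophen and 2289, 1398, 1296, 1121 and 1231 CPM with thioacetamide. Its groups did not overlap (2.51 ± 0.41, adjusted p = 0.0125, 2.62 without APAP 1), although the highest vehicle mouse reached 1124 CPM. The near-identical Cyp4a10 ranged over 79.8 to 662 CPM with acetaminophen and 1134 to 2786 CPM with thioacetamide. It just missed the threshold with all mice (2.44 ± 0.60, adjusted p = 0.0546) and passed without APAP 1 (2.88, adjusted p = 0.0105). Cyp4a10 and Cyp4a14 are similar enough that reads could be assigned to either.

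Acadm, which starts mitochondrial oxidation of medium-chain fatty acids, read 70.7 to 106 CPM (median 89.6) with acetaminophen and 168, 120.5, 196, 152 and 148 CPM with thioacetamide. The step was smaller and without overlap (0.80 ± 0.17, adjusted p = 0.0324, 0.75 without APAP 1). The long-chain trifunctional subunits Hadha (0.67 ± 0.25, adjusted p = 0.17, 0.53 without APAP 1) and Hadhb (0.58 ± 0.21, adjusted p = 0.158, 0.55 without APAP 1) did not pass. Outside metabolism, the translation initiation helicase gene Eif4a2 belonged to the same class. It read 33.8 to 58.2 CPM (median 44.7) with acetaminophen and 86.6, 113, 204, 164 and 167 CPM with thioacetamide, fell by 0.44 from vehicle with acetaminophen and rose by 1.25 with thioacetamide (1.68 ± 0.23 between them, adjusted p = 0.00509, 1.69 without APAP 1).

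Of 20 chaperone and quality control genes of the endoplasmic reticulum, 3 were called, all higher with acetaminophen (1.01% of all genes). Hepatocytes fold secreted proteins there with chaperones such as Hspa5, and the unfolded protein response raises these genes through promoter elements bound by ATF6 and its partners. The element searched was the endoplasmic reticulum stress response element, spelled CCAAT, then 9 bases of any kind, then CCACG, on both strands of the 250 bases before each start site in RefSeq (build GRCm38.p6). It was found in 8 of the 18 listed chaperone and quality control genes that had an entry, of 20 in the list, and in 35 of 27025 genes in all (0.13%). The 8 were Hspa5, Hsp90b1, Dnajc3, Pdia6, Calr, Canx, Creld2 and Syvn1. Below are the promoters of Hspa5 (chr2:34771840-34772089, plus strand) and Creld2 (chr15:88819396-88819645, plus strand), with the match in capitals, which in Creld2 lies on the opposite strand. Sdf2l1 (chr16:17132384-17132633, minus strand), the called member with the largest difference, held no match in this window, and its bases are all in lower case. The other called members, Sel1l and Sec61b, held none either. The letters are a description of the sequence and not a measured binding site.
Hspa5: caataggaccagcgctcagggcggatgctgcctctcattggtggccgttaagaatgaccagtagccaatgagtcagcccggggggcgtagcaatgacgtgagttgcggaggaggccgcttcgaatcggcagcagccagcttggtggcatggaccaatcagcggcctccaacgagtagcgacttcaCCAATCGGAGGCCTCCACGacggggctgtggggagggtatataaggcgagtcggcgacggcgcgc
Creld2: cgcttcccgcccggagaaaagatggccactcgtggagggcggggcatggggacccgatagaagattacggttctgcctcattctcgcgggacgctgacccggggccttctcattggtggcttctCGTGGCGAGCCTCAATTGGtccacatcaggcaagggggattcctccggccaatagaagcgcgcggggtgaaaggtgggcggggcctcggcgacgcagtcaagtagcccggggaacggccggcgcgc
Sdf2l1: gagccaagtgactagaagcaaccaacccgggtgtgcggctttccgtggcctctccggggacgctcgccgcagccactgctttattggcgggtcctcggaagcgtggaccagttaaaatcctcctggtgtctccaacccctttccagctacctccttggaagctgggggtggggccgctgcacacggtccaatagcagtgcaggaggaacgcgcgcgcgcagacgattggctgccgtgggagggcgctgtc

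Of these 20 genes 19 had a fold change below 0 and the median was -0.85; in 4 every acetaminophen mouse lay above every thioacetamide mouse (1.54% of all genes tested). Against vehicle, 11 of 20 rose with acetaminophen (17.3% of all genes), and 8 fell (24%) and 2 rose (26.4%) with thioacetamide. The summed level of the list was 2639 to 12577 CPM with acetaminophen (the highest in APAP 1), 2489 to 3525 with thioacetamide and 2491 to 3940 with vehicle. Without APAP 1 the median was -0.68 and 7 were lower with thioacetamide (6.41% of all genes).

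Sdf2l1 (ENSMUSG00000022769), a cofactor that keeps misfolded proteins soluble, read 50.3 to 199.7 CPM (median 99.6) with acetaminophen, 35.4, 34.1, 29.2, 28.1 and 24.6 CPM with thioacetamide and 30.9 to 79.4 CPM with vehicle. All acetaminophen mice lay above all thioacetamide mice (-1.89 ± 0.33, adjusted p = 0.0163, -1.63 without APAP 1), and the gene rose by 1.22 from vehicle with acetaminophen and fell by 0.66 with thioacetamide. Sel1l, the adaptor that hands misfolded proteins to degradation, read 22.9 to 78.1 CPM (median 47.7) with acetaminophen and 18.3, 17.9, 17.3, 20.7 and 14.4 CPM with thioacetamide. Its groups were separated by a narrow gap (-1.40 ± 0.29, adjusted p = 0.0331, -1.18 without APAP 1), and only thioacetamide departed from vehicle. Sec61b, a subunit of the channel through which proteins enter the organelle, read 193 to 262 CPM (median 246) with acetaminophen and 191, 155, 137, 118 and 155 CPM with thioacetamide (-0.68 ± 0.16, adjusted p = 0.0488, -0.73 without APAP 1). Erp29, a folding factor for secreted proteins outside the list, read 75.0 to 109 CPM (median 91.7) and 64.0, 58.4, 53.4, 51.5 and 51.3 CPM. It departed from vehicle in opposite directions (-0.77 ± 0.15, adjusted p = 0.0265, -0.82 without APAP 1).

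Hspa5 itself was not called. It read 319.5 to 3244 CPM (median 499) with acetaminophen, where APAP 1 held the highest level, and 688, 535, 1029.7, 1020.3 and 865 CPM with thioacetamide. The fold change was -0.23 ± 0.58 (adjusted p = 0.866) with all mice and 0.73 (adjusted p = 0.0971) without APAP 1. Pdia4, a disulfide isomerase, just missed the threshold without overlap (-1.08 ± 0.26, adjusted p = 0.0528, -0.93 without APAP 1), and Creld2 overlapped (-1.73 ± 0.56, adjusted p = 0.119, -0.93 without APAP 1). Rpn1, a subunit of the enzyme that attaches N-glycans, is outside the list and was chosen after its values were seen. It read 208 to 249 CPM (median 236) with acetaminophen, 132, 134, 114, 103 and 134 CPM with thioacetamide and 111 to 149 CPM with vehicle. The acetaminophen mice lay above all others and the thioacetamide mice within the vehicle range or just below it (-0.94 ± 0.14, adjusted p = 0.00822, -0.92 without APAP 1).

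Hepatocytes make acute phase proteins for secretion in response to interleukin-6 and related signals. Of 24 listed genes 4 were called, all higher with acetaminophen (1.01% of all genes). All 24 had a fold change below 0, with a median of -1.29; without APAP 1 the median was -0.33 and 8 were called (6.41% of all genes). Their summed level was 33237 to 170871 CPM with acetaminophen, the highest again in APAP 1, and 23537 to 31737 with thioacetamide. Against vehicle, 19 of 24 rose with acetaminophen (17.3% of all genes) and 10 with thioacetamide (26.4%).

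Orm2, the carrier protein orosomucoid, read 48.0 to 297 CPM (median 172) with acetaminophen and 41.4, 38.5, 40.0, 45.9 and 36.8 CPM with thioacetamide. The vehicle mice spanned 26.8 to 239 CPM, a range that holds most mice of both groups, and the toxicants did not overlap (-2.12 ± 0.39, adjusted p = 0.0228, -1.88 without APAP 1). Apcs, the serum amyloid P component, read 277 to 645 CPM (median 352) with acetaminophen, 136, 155, 158, 126 and 143 CPM with thioacetamide and 75.3 to 179.7 CPM with vehicle. The acetaminophen mice lay above every other mouse and the thioacetamide mice inside the vehicle range (-1.55 ± 0.25, adjusted p = 0.0111, -1.45 without APAP 1). Fga, which encodes a fibrinogen chain, rose from vehicle with both toxicants and further with acetaminophen (-1.42 ± 0.31, adjusted p = 0.0361, -1.10 without APAP 1). Itih4, a plasma protein of the inter-alpha-trypsin inhibitor family, read 1008 to 3635 CPM (median 1429.5) with acetaminophen and 906, 567, 597, 595 and 667 CPM with thioacetamide. The vehicle range of 939 to 1501 CPM held all acetaminophen mice but APAP 1, and the thioacetamide mice lay below it (-1.38 ± 0.33, adjusted p = 0.0488, -1.0 without APAP 1). Serpina10, an inhibitor of coagulation factor X outside the list, also departed up with acetaminophen and down with thioacetamide. Its ranges were narrower, 121 to 153 CPM (median 141) and 70.9 to 96.0 CPM (-0.80 ± 0.14, adjusted p = 0.0188, -0.76 without APAP 1). The fibrinogen gene Fgg did not overlap either but missed the threshold (-1.45 ± 0.35, adjusted p = 0.0511, -1.07 without APAP 1).

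**Figure D3:**
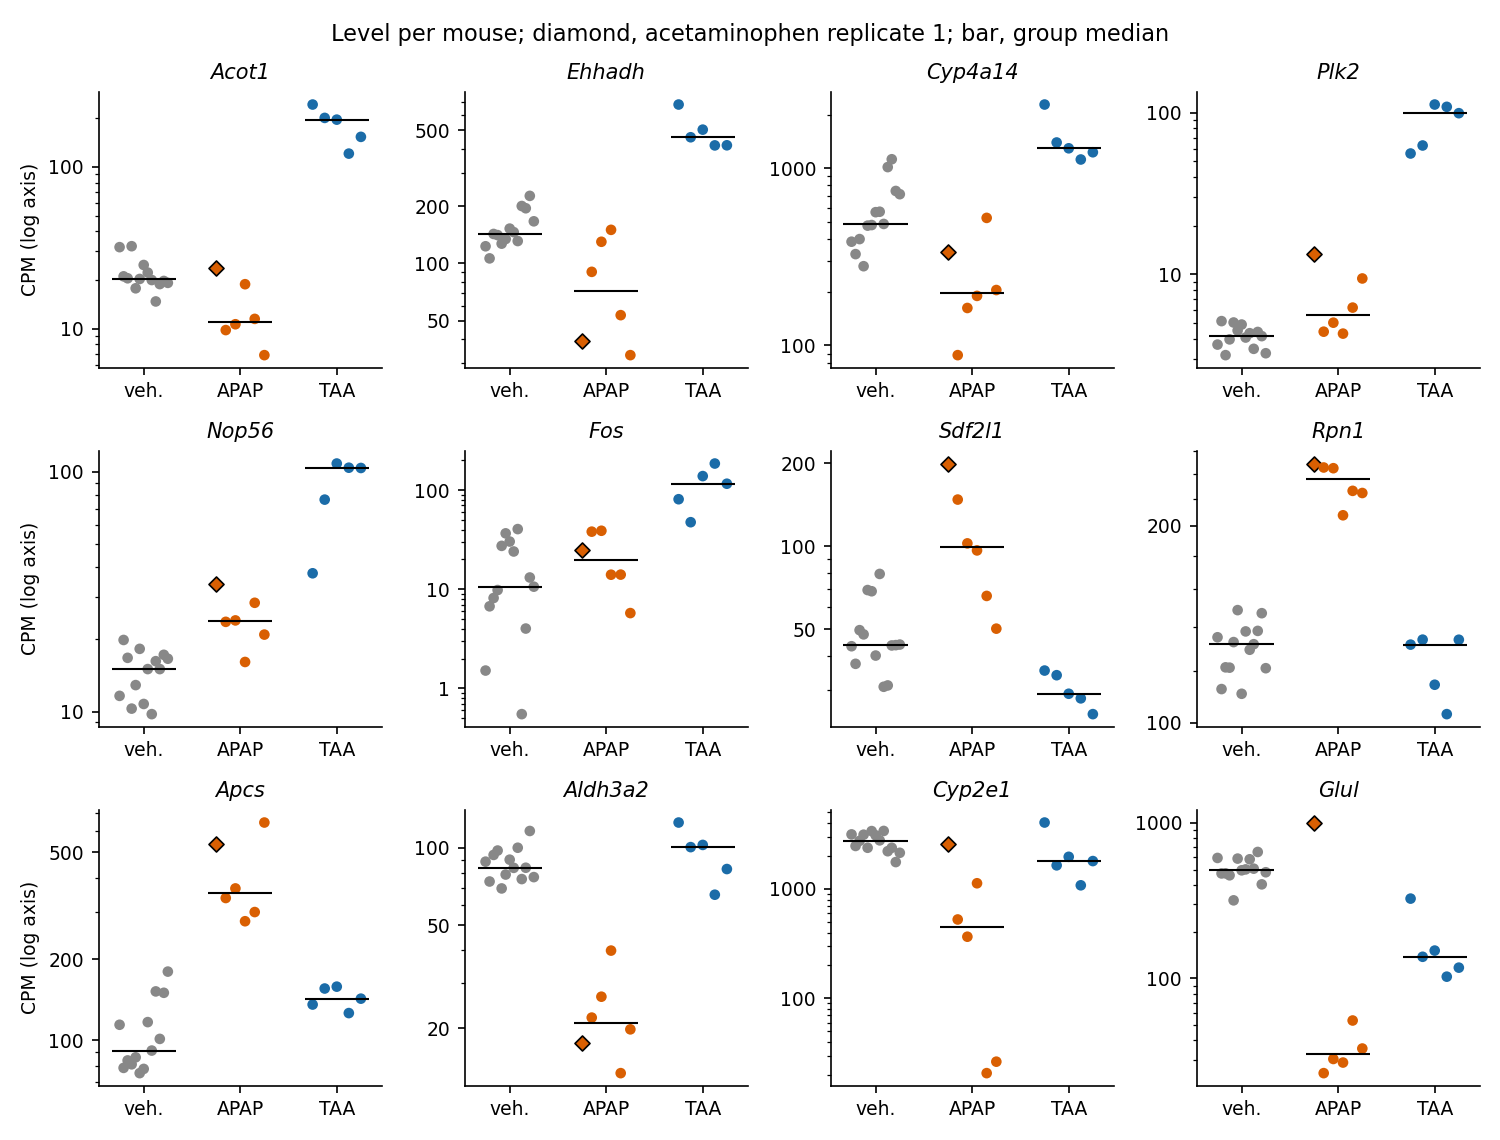
CPM in each mouse on log axes for 12 genes, with vehicle (veh., 13 mice), acetaminophen (APAP, 6) and thioacetamide (TAA, 5). The diamond is APAP 1 and bars are medians. Acot1, Ehhadh, Plk2 and Nop56 are high with thioacetamide, Sdf2l1, Rpn1 and Apcs are high with acetaminophen, and in Glul the diamond lies above all other acetaminophen mice.

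Few genes of the p53, AP-1 and ATF4 lists, which hold regulators and targets of damage and stress responses, were called, each of them higher with thioacetamide. Of 21 targets of p53, the factor activated by DNA damage, 2 were higher with thioacetamide and none lower (median 0.66; 1.61% and 1.01% of all genes), and 4 were higher without APAP 1 (median 0.57; 7.99% of all genes). Plk2 (ENSMUSG00000021701), a kinase that p53 raises, read 4.30 to 13.3 CPM (median 5.63) with acetaminophen, 55.9, 62.7, 112, 109 and 99.2 CPM with thioacetamide and 3.17 to 5.14 CPM with vehicle. The lowest thioacetamide mouse was well above the highest acetaminophen mouse, APAP 1 (3.59 ± 0.36, adjusted p = 0.000676, 3.86 without APAP 1). Mdm2, the ligase that degrades p53, read 9.22 to 24.8 CPM (median 11.5) and 25.8, 31.3, 51.5, 57.8 and 44.1 CPM. APAP 1 nearly reached the lowest thioacetamide mouse, while the other acetaminophen mice lay near the vehicle range of 6.53 to 12.6 CPM (1.62 ± 0.30, adjusted p = 0.0208, 1.89 without APAP 1). Rbm38, an RNA-binding p53 target outside the list that was chosen after its values were seen, read 3.01 to 8.26 CPM (median 5.47) with acetaminophen and 29.2, 38.4, 46.5, 44.1 and 46.6 CPM with thioacetamide (2.81 ± 0.26, adjusted p = 0.000337, 2.82 without APAP 1).

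The AP-1 and immediate early factors are switched on within minutes by growth and stress signals. Of 19 tested, 4 were higher with thioacetamide and none lower (median 1.43; 1.61% of all genes were called higher), and 17 were higher without APAP 1 (median 2.13; 7.99% of all genes). Fosb read 0.234 to 3.29 CPM (median 0.644) with acetaminophen and 8.20, 6.39, 15.6, 23.8 and 13.4 CPM with thioacetamide. It was higher in every thioacetamide mouse (3.37 ± 0.69, adjusted p = 0.0302, 3.85 without APAP 1). Fosl1 was near 0 with vehicle (at most 0.224 CPM), read 1.73 to 19.8 CPM (median 4.17) with acetaminophen and 63.2, 61.8, 53.02, 46.6 and 53.8 CPM with thioacetamide. Both toxicants raised it, thioacetamide further (2.88 ± 0.58, adjusted p = 0.0296, 3.45 without APAP 1). Fos read 5.75 to 38.9 CPM (median 19.6) and 80.9, 47.4, 138, 185 and 116 CPM, and only thioacetamide departed from vehicle (2.30 ± 0.48, adjusted p = 0.0324, 2.34 without APAP 1). Egr2 overlapped in 1 mouse of each group (2.03 ± 0.45, adjusted p = 0.038, 2.13 without APAP 1). Arc, known as an immediate early gene of neurons and outside the list, read 0.134 to 2.09 CPM (median 0.551) and 4.97, 6.60, 10.3, 8.84 and 9.84 CPM and at most 0.144 CPM with vehicle (3.48 ± 0.56, adjusted p = 0.0109, 4.04 without APAP 1).

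Of 23 tested genes of the ATF4 integrated stress response, 3 were higher with thioacetamide and none lower (median 0.47; 1.61% and 1.01% of all genes). Without APAP 1, 12 were higher (7.99% of all genes), with a median of 0.84. Gdf15, a circulating stress hormone, read 9.402 to 61.1 CPM (median 21.6) with acetaminophen and 209, 84.5, 157, 263 and 181 CPM with thioacetamide. The vehicle mice ranged over 3.86 to 116 CPM and only thioacetamide departed from them (2.63 ± 0.47, adjusted p = 0.0177, 3.02 without APAP 1). Ppp1r15a, which restarts translation after stress, was split within the acetaminophen group, where APAP 1 held 89.6 CPM and the other 5 at most 14.02 CPM. The thioacetamide mice had 104, 126, 165, 149 and 154 CPM, and the fold change was 2.45 ± 0.58 (adjusted p = 0.0488) with APAP 1 and 3.50 (adjusted p = 3.73e-06) without it. Shmt2, a mitochondrial enzyme of 1-carbon metabolism, fell from vehicle with both toxicants, further with acetaminophen (0.84 ± 0.17, adjusted p = 0.0296, 0.76 without APAP 1).

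Ribosome biogenesis was the list with the most called members. All 24 genes had a fold change above 0, with a median of 0.98, and 10 were higher with thioacetamide (1.61% of all genes). Against vehicle, 23 of 24 rose with thioacetamide (26.4% of all genes) and 12 with acetaminophen (17.3%). The summed level was 828 to 1040 CPM with thioacetamide, 354 to 689 with acetaminophen (APAP 1 the highest) and 274 to 418 with vehicle, so the groups did not overlap; 21 genes were called higher without APAP 1 (7.99% of all genes). With library totals in place of TMM scaling, 4 were called.

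Nop56, a core protein of the particles that modify ribosomal RNA, read 16.1 to 34.2 CPM (median 23.8) with acetaminophen, 37.8, 76.7, 108, 104 and 104 CPM with thioacetamide and 9.75 to 19.9 CPM with vehicle. TAA 1 lay just above APAP 1 and the other 4 thioacetamide mice much higher (1.78 ± 0.28, adjusted p = 0.01, 1.90 without APAP 1). Ddx21, a nucleolar helicase, read 9.18 to 20.7 CPM (median 10.5) and 37.6, 28.6, 36.9, 36.2 and 41.6 CPM and did not overlap (1.51 ± 0.22, adjusted p = 0.00761, 1.72 without APAP 1). In the nucleolar GTPase gene Gnl3, APAP 1 (35.98 CPM) stood level with the lowest thioacetamide mouse (1.58 ± 0.33, adjusted p = 0.0324, 1.94 without APAP 1). Nucleolin, Ncl, rose with both toxicants and further with thioacetamide (1.28 ± 0.24, adjusted p = 0.0213, 1.24 without APAP 1). The methyltransferase gene Nop2, another called member, was chosen after its values were seen. It departed from vehicle with thioacetamide alone (1.15 ± 0.18, adjusted p = 0.0102, 1.17 without APAP 1).

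Among genes with a symbol that is no placeholder, at least 5 CPM in the higher group and no overlap, the 6 largest fold changes on the thioacetamide side were in Hist1h4n, Gzmm, Zfp296, Acot1, Plk2 and Arc. Hist1h4n, Gzmm, Zfp296 and Arc had means under 1 CPM with acetaminophen and pass these limits through thioacetamide alone. Outside these limits, 11 called genes had a larger fold change than Gzmm, Gm22748 and Gm45184 the largest. Gzmm, a granzyme gene of cytotoxic lymphocytes, read 0.0493 to 0.419 CPM (median 0.252) with acetaminophen and 3.35, 5.98, 8.45, 5.73 and 7.85 CPM with thioacetamide (4.70 ± 0.48, adjusted p = 0.00076, 4.85 without APAP 1). None of 9 tested T and NK cell markers was called in edgeR, with 2 at an unadjusted p under 0.05, 1 in DESeq2 and 1 in limma. The sum of these markers was 8.72 to 188.7 CPM with acetaminophen (the highest in APAP 1), 11.1 to 15.4 with thioacetamide and 6.72 to 25.6 with vehicle. The part of such cells in the Gzmm difference was not tested. Zfp296, a zinc finger gene, read 0.0669 to 0.915 CPM (median 0.204) and 5.16, 2.92, 7.27, 7.51 and 7.81 CPM (4.21 ± 0.58, adjusted p = 0.0047, 4.11 without APAP 1). The histone H4 copy Hist1h4n was at 0 in 4 acetaminophen mice and read 10.9, 12.8, 20.3, 13.6 and 6.67 CPM with thioacetamide (4.77 ± 1.07, adjusted p = 0.0396, 4.56 without APAP 1). Histone H4 copies are near identical and their counts are uncertain between copies.

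Single genes were called in the lists of growth factors, cytokines, cell cycle and cell structure. Ereg, a ligand of the epidermal growth factor receptor (2.43 ± 0.58, adjusted p = 0.0488, 2.37 without APAP 1), and Dusp4, a phosphatase that damps its signal (1.90 ± 0.41, adjusted p = 0.0344, 2.43 without APAP 1), were the 2 called of 19 tested in their list (median 0.61; 1.61% of all genes). Without APAP 1, 9 of the 19 were higher with thioacetamide (median 1.25; 7.99% of all genes). Ereg stayed at or below 0.0494 CPM with vehicle and was too low to be tested between acetaminophen and vehicle. Its call therefore rests on its level with thioacetamide. Lif, a cytokine of the interleukin-6 family, was the 1 called of 24 cytokines and chemokines, at 0.384 to 2.34 CPM (median 0.681) with acetaminophen and 3.73, 2.92, 3.68, 6.43 and 4.43 CPM with thioacetamide (2.05 ± 0.45, adjusted p = 0.0364, 2.12 without APAP 1). The median of that list was -0.44 with APAP 1 and 0.89 without it, where 4 were higher (7.99% of all genes, and 1.61% with all mice). APAP 1 held 3525 CPM of the summed list, and the highest thioacetamide mouse 1102. Rrm2, the ribonucleotide reductase subunit of dividing cells, read 1.82 to 4.32 CPM (median 3.13) and 8.88, 7.61, 14.1, 15.8 and 16.9 CPM (1.95 ± 0.28, adjusted p = 0.00595, 1.97 without APAP 1). It was the 1 called of 24 tested cell cycle genes (1.61% of all genes were called higher), whose median was -0.41. Without APAP 1, 2 were higher (7.99% of all genes) and 3 lower (6.41%), with a median of -0.44. Beta-actin, Actb, was the 1 called of 24 annexin, tubulin, S100 and related genes (1.61% of all genes were called higher). Without APAP 1, 5 of these 24 were higher (7.99% of all genes) and 3 lower (6.41%). Actb rose from vehicle with both and further with thioacetamide, at 776 to 1699 CPM (median 1171) and 2577, 2362, 2877, 2817 and 3407 CPM (1.17 ± 0.23, adjusted p = 0.0294, 1.20 without APAP 1).

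Of 22 genes of glucose metabolism, 3 were higher with thioacetamide (1.61% of all genes) and none lower (median 0.33). Without APAP 1, 7 were higher (7.99% of all genes) and 2 lower (6.41%), with a median of 0.44. The glucose transporter gene Slc2a1 read 9.53 to 54.2 CPM (median 15.6) with acetaminophen, 63.4, 94.0, 150.1, 192 and 118 CPM with thioacetamide and 5.27 to 14.7 CPM with vehicle. APAP 1 was the highest of its group and just below the lowest thioacetamide mouse (2.42 ± 0.49, adjusted p = 0.0302, 2.89 without APAP 1). Pkm, the pyruvate kinase that adult hepatocytes express little, rose with both and further with thioacetamide, with some overlap (1.07 ± 0.26, adjusted p = 0.0488, 1.11 without APAP 1). Gpi1, a glycolytic isomerase, instead fell with acetaminophen alone, to 124 to 203 CPM (median 143) against 328, 378, 299, 355 and 287 CPM (1.05 ± 0.19, adjusted p = 0.0228, 0.99 without APAP 1). Of 16 cytosolic heat shock genes, all with a fold change above 0 (median 0.38, and 1.10 without APAP 1), the HSP90 genes Hsp90aa1 (1.43 ± 0.34, adjusted p = 0.0488, 1.37 without APAP 1) and Hsp90ab1 (0.99 ± 0.17, adjusted p = 0.0177, 1.07 without APAP 1) were called (1.61% of all genes were called higher), and 6 were higher without APAP 1 (7.99%). APAP 2, at 143 CPM, was the 1 acetaminophen mouse that overlapped in Hsp90aa1.

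Among the genes lower with thioacetamide, the largest differences came mostly from a fall with thioacetamide alone. Sds, a periportal enzyme that breaks down serine, read 151 to 1267 CPM (median 236) with acetaminophen, 99.4, 41.2, 40.6, 56.6 and 61.4 CPM with thioacetamide and 188 to 508 CPM with vehicle. APAP 1 held the highest level of all 24 mice, and the fold change was -2.77 ± 0.58 (adjusted p = 0.033) with it and -1.93 (adjusted p = 0.00207) without it. Bik, a promoter of apoptosis, read 3.41 to 24.8 CPM (median 11.2) and 1.61, 2.68, 2.11, 0.839 and 2.20 CPM (-2.68 ± 0.54, adjusted p = 0.0296, -2.84 without APAP 1). Trp53inp2, which acts in autophagy, read 45.6 to 138 CPM (median 87.1) and 9.50, 24.7, 15.1, 16.2 and 11.3 CPM. All thioacetamide mice lay below the vehicle range of 63.4 to 113 CPM (-2.59 ± 0.36, adjusted p = 0.00474, -2.72 without APAP 1). The collagen gene Col27a1 (-2.44 ± 0.30, adjusted p = 0.00248, -2.55 without APAP 1) followed it.

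Tmem25, a membrane protein gene, and Dhrs3, which reduces retinal, fell from vehicle with both toxicants and further with thioacetamide. Tmem25 read 3.77 to 10.1 CPM (median 8.41) and 1.24, 1.32, 1.599, 3.01 and 0.894 CPM (-2.24 ± 0.37, adjusted p = 0.0129, -2.37 without APAP 1). Dhrs3 read 14.7 to 98.4 CPM (median 53.6) and 14.5, 12.9, 10.1, 13.8 and 8.25 CPM, with APAP 8 close to the highest thioacetamide mouse (-2.20 ± 0.45, adjusted p = 0.0296, -2.33 without APAP 1). Srebf1, the activator of fatty acid synthesis, behaved likewise at 45.2 to 301 CPM (median 110.2) and 31.5, 36.3, 33.5, 44.0 and 32.7 CPM (-1.95 ± 0.46, adjusted p = 0.0487, -2.06 without APAP 1). It was the 1 called of 15 genes of that pathway (median -0.40, and -0.46 without APAP 1), of which 13 fell from vehicle with acetaminophen (14.6% of all genes) and 15 with thioacetamide (24%). Of 22 cholesterol synthesis and uptake genes edgeR called none (median -1.17), with 5 at an unadjusted p under 0.05, 4 called by DESeq2 and 0 by limma. Without APAP 1 edgeR called 3 of them lower with thioacetamide (median -1.36).

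Of the 367 genes called between the toxicants, 25 departed from vehicle with acetaminophen alone (162 of 2002 without APAP 1). Aldh3a2, a fatty aldehyde dehydrogenase of pericentral hepatocytes, read 13.4 to 40.0 CPM (median 20.9) with acetaminophen, 125, 101, 103, 65.8 and 82.8 CPM with thioacetamide and 69.6 to 116 CPM with vehicle. The thioacetamide and vehicle ranges overlapped and all acetaminophen mice lay below them (2.02 ± 0.27, adjusted p = 0.00442, 1.95 without APAP 1). Rdh16, a retinol dehydrogenase, also fell with acetaminophen alone, at 5.19 to 11.7 CPM (median 5.97) against 30.1, 18.3, 19.4, 15.2 and 18.0 CPM (1.52 ± 0.26, adjusted p = 0.0154, 1.74 without APAP 1), as did the membrane protein gene Tmem243 (0.94 ± 0.19, adjusted p = 0.0305, 1.08 without APAP 1). On the rising side, Mustn1, a small nuclear protein of muscle and cartilage, read 4.096 to 13.7 CPM (median 7.67) with acetaminophen and 3.48, 3.58, 3.05, 1.61 and 2.44 CPM with thioacetamide (-1.57 ± 0.31, adjusted p = 0.0294, -1.70 without APAP 1). Gas6, the ligand of TAM receptors through which macrophages clear dead cells, read 26.8 to 40.2 CPM (median 32.96) and 20.6, 19.2, 16.4, 12.1 and 16.8 CPM. The groups did not overlap (-0.99 ± 0.17, adjusted p = 0.0173, -1.04 without APAP 1), though the vehicle range of 15.2 to 34.5 CPM holds most mice of both.

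The values of the pericentral list depended on APAP 1. Of 19 tested genes 1, Aldh3a2, was called with all mice (median 0.70; 1.61% of all genes were called higher) and 8 were higher with thioacetamide without APAP 1 (median 1.27; 7.99% of all genes). Glul, the glutamine synthetase of the hepatocytes next to the central vein, read 1003 CPM in APAP 1 and at most 53.7 CPM in the other 5 acetaminophen mice. The thioacetamide mice had 326, 138, 151, 103 and 117 CPM and the vehicle mice 318 to 649. The fold change was -0.27 ± 1.00 (adjusted p = 0.915) with APAP 1 and 2.24 (adjusted p = 0.00313) without it. Oat, an ornithine enzyme of the same zone, read 12.4 to 209 CPM (median 33.9) and 549.6, 342, 344, 206 and 271 CPM, and its fold change was 2.52 ± 0.67 (adjusted p = 0.0694) with APAP 1 and 3.58 (adjusted p = 0.000874) without it. Against vehicle, 15 of 19 fell with acetaminophen (14.6% of all genes) and 14 with thioacetamide (24%). Of 18 periportal genes 1 was higher (1.61% of all genes) and 1 lower (1.01%) with thioacetamide. The lower was Sds, given above. The higher was the adhesion gene Cdh1 at 22.3 to 46.1 CPM (median 29.6) and 70.6, 59.5, 70.6, 74.3 and 68.0 CPM (1.05 ± 0.20, adjusted p = 0.0265, 1.00 without APAP 1). Without APAP 1, 2 periportal genes were higher (7.99% of all genes) and 4 lower (6.41%).

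Markers of other liver cells separated the toxicants in few genes. All 15 tested neutrophil markers had a fold change above 0, with a median of 1.70 (1.61 without APAP 1), yet edgeR called none with or without APAP 1. An unadjusted p under 0.05 was seen in 8, DESeq2 called 4 and limma 2. The summed level of the markers was 15.4 to 287 CPM with acetaminophen, 177 to 962 with thioacetamide and 3.24 to 75.0 with vehicle. The spread between mice was wide in both groups. Il1r2, a decoy receptor of neutrophils, read 0.0763 to 4.45 CPM (median 1.58) and 6.34, 4.48, 16.0, 45.9 and 15.2 CPM without overlap (3.08 ± 0.99, adjusted p = 0.117, 3.21 without APAP 1). Against vehicle, 14 of 15 rose with thioacetamide (26.4% of all genes) and 4 with acetaminophen (17.3%). None of 12 monocyte, 13 repair macrophage or 14 Kupffer cell markers was called in edgeR, with 3, 1 and 2 at an unadjusted p under 0.05. DESeq2 and limma each called 1 monocyte marker and 0 of the others. Without APAP 1, edgeR called 1 Kupffer cell marker lower with thioacetamide (6.41% of all genes). The summed levels of these lists, in the same order, were 528 to 1004, 491 to 868 and 625 to 1173 CPM with acetaminophen and 614 to 727, 347 to 528 and 572 to 831 CPM with thioacetamide. The part of these cells in the differences above was not tested.

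Of 16 sinusoidal endothelial markers 2 were lower with thioacetamide (1.01% of all genes) and none higher (median -0.72). Without APAP 1, 7 were lower (6.41% of all genes), and with library totals in place of TMM none was. Flt4, a growth factor receptor, read 7.55 to 12.7 CPM (median 11.3) and 4.53, 6.29, 5.67, 5.94 and 5.33 CPM (-0.94 ± 0.19, adjusted p = 0.0296, -1.01 without APAP 1). Eng, a co-receptor of the TGF-beta family, read 45.8 to 73.7 CPM (median 55.8) and 33.4, 44.6, 31.4, 24.3 and 23.7 CPM (-0.92 ± 0.20, adjusted p = 0.038, -0.98 without APAP 1). Both departed from vehicle with thioacetamide alone. Ngfr, the 1 called of 13 quiescent stellate cell markers, read 2.61 to 6.10 CPM (median 5.04) and 2.11, 1.01, 0.784, 0.874 and 0.732 CPM (-2.16 ± 0.34, adjusted p = 0.0105, -2.08 without APAP 1). Without APAP 1, 3 of the 13 were lower with thioacetamide (6.41% of all genes). The median of the list was 0.08 with all mice and 0.24 without APAP 1. Cd79a, of the B cell receptor, was the 1 called of 6 B and plasma cell markers, at 0.292 to 1.61 CPM (median 0.650) and 1.49, 3.96, 3.92, 2.48 and 3.33 CPM with 1 pair of mice in overlap (2.01 ± 0.42, adjusted p = 0.0324, 1.93 without APAP 1).

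**Figure D4:**
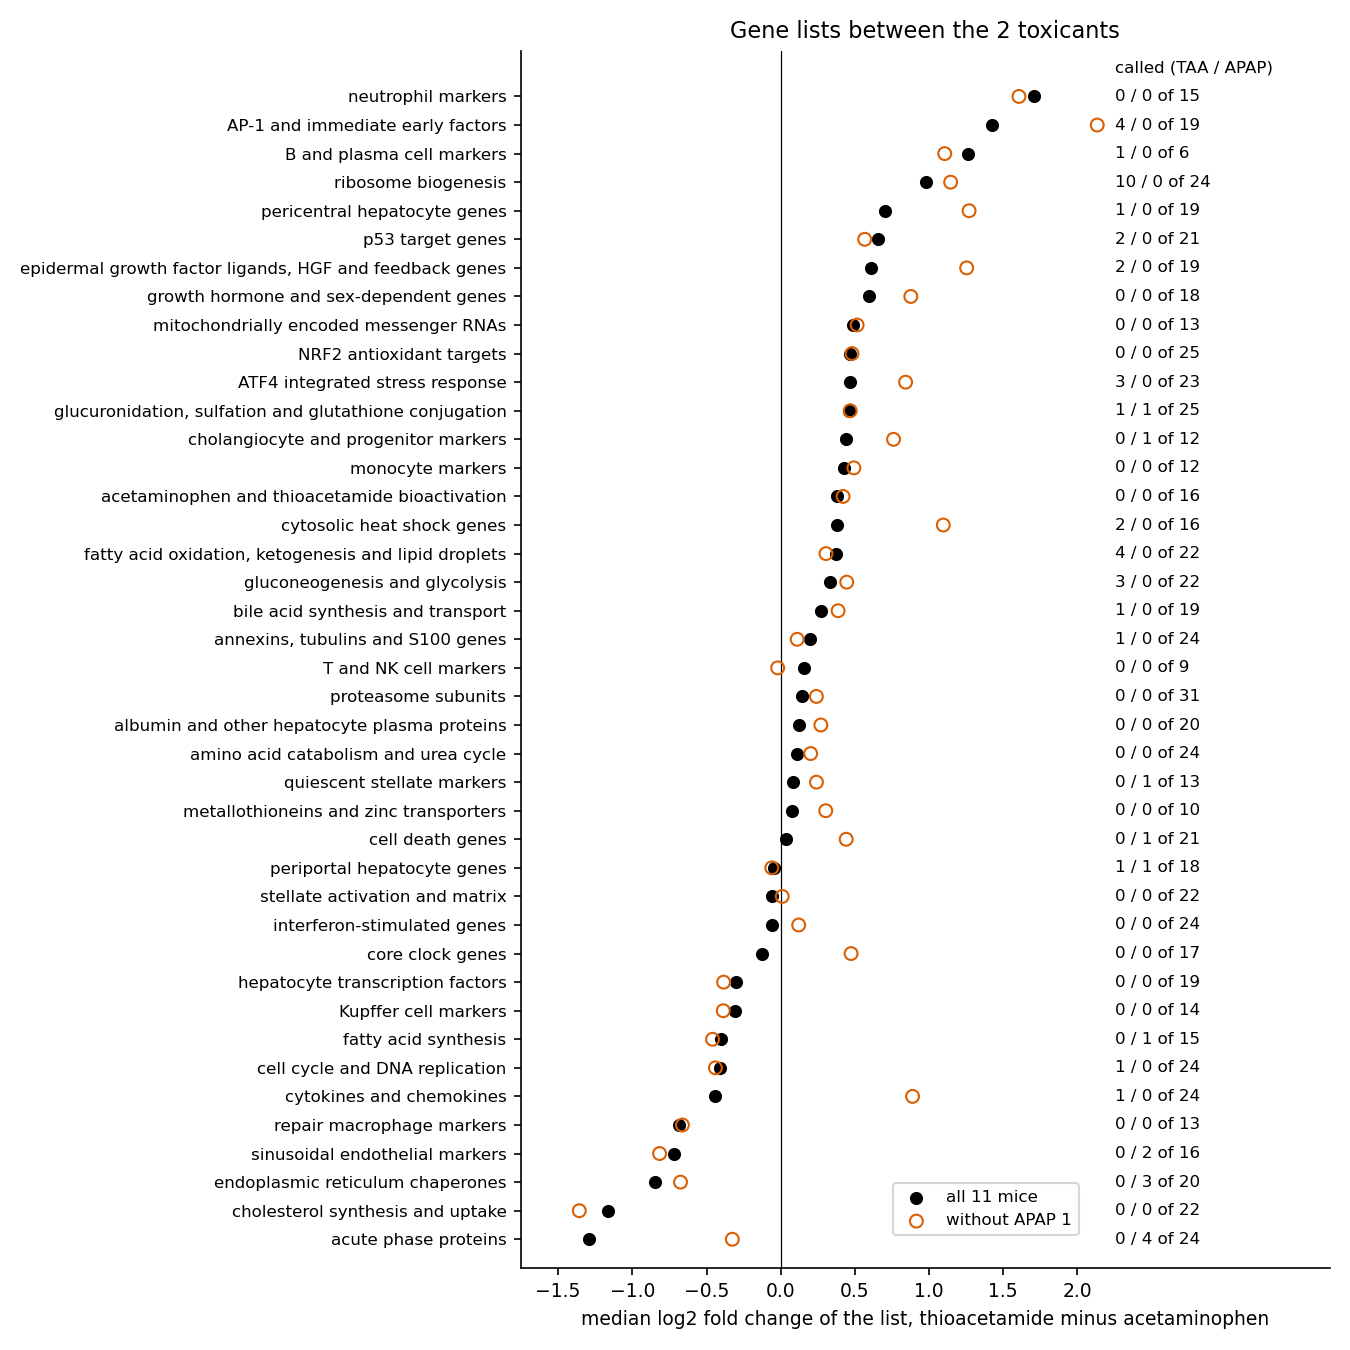
Median log2 fold change between the toxicants (x axis) of the tested members of each of 41 gene lists, with all 11 mice (filled) and without APAP 1 (open). At the right are the members called higher with thioacetamide and with acetaminophen. Acute phase proteins, cytokines and chemokines, and heat shock genes move most when APAP 1 is left out, and ribosome biogenesis has the most called members.

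Other lists separated the toxicants in few genes or none. Among 19 bile acid genes the drug exporter gene Abcb1a alone was called (1.10 ± 0.26, adjusted p = 0.0488, 1.06 without APAP 1), where 1.61% of all genes were higher. Among 21 cell death genes the cytokine gene Il18 alone was called (-1.08 ± 0.21, adjusted p = 0.0294, -1.16 without APAP 1), where 1.01% of all genes were lower. Without APAP 1, 2 bile acid genes were higher with thioacetamide and 3 lower (median 0.39, against 0.27 with all mice). Of the cell death genes, 5 were then higher and 1 lower (median 0.44, against 0.04 with all mice). The shares of all genes without APAP 1 were 7.99% higher and 6.41% lower. No member was called among 31 proteasome subunits (median 0.15), 24 interferon-stimulated genes (-0.06), 22 genes of stellate activation and matrix (-0.06), 24 genes of amino acid catabolism and the urea cycle (0.11), 20 plasma protein genes (0.13), 19 hepatocyte transcription factors (-0.30), 17 core clock genes (-0.12), 18 growth hormone and sex-dependent genes (0.59) or 13 mitochondrially encoded messenger RNAs (0.49). Without APAP 1, 6 core clock genes were higher with thioacetamide (median 0.47), 1 hepatocyte transcription factor was higher and 4 were lower (median -0.38), and 4 growth hormone and sex-dependent genes were higher and 1 lower (median 0.88), where 7.99% of all genes were higher and 6.41% lower. The summed level of the stellate and matrix genes was 505 to 963 CPM with acetaminophen and 1095 to 1584 CPM with thioacetamide, so the groups did not overlap in the sum, and 3 members did not overlap with thioacetamide higher (2.78% of all genes). The sums did not overlap either for the p53 targets (315 to 648 and 699 to 894 CPM), the annexin, tubulin and S100 list (2644 to 5991 and 6249 to 7305 CPM) and the fatty acid oxidation list (2633 to 4928 and 5849 to 11004 CPM), thioacetamide higher in each, nor for the acute phase proteins given above, with acetaminophen higher. A sum follows its most abundant members. Against vehicle, 17 and 16 of the 22 stellate and matrix genes rose with acetaminophen and thioacetamide, and 21 of the 24 amino acid genes fell with each. Over the 18 lists with no call in edgeR, 64 of 324 members had an unadjusted p under 0.05, DESeq2 called 23 and limma 14. Among all genes, 2696 had an unadjusted p under 0.05 between the toxicants, and a call that was missed does not show that the levels were equal.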

How the data were processed

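Per the submitters' processing notes, Salmon 1.6.0, R 4.1.3 and the genome build GRCm39 were used; the labels' protocols give a stranded mRNA kit and single-end reads. The authors deposited 1 table of estimated counts per Ensembl gene (54307 genes, 57 mice), not whole numbers, which were rounded here. Symbols were matched for 51482 identifiers and 2825 had none. No 2 of the libraries used were identical.

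Genes were filtered with filterByExpr, scaled by TMM and tested with the quasi-likelihood F test of edgeR 4.0.16 in R 4.3.3 (two-sided, Benjamini-Hochberg over all genes tested, called at an adjusted p under 0.05). The direct fit held the 11 toxicant mice, and each toxicant was fitted against the 13 vehicle mice by itself. Log2 fold changes carry SE = fold change / square root of F. CPM uses TMM factors over the 24 mice. DESeq2 1.42.0, limma 3.58.1 on log2(CPM + 1), other scaling, filters, a replicate block and single mice left out were alternatives.

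The 41 gene lists (806 genes; 3 members without a match, 41 under the filter) and the members were chosen with earlier results of these data known. Named genes were, within lists, the called members with the largest fold changes (up to 4) and exceptions; the 6 largest fold changes each way among called genes with a symbol that is no placeholder (Gm, Rik or accession style), at least 5 CPM in the higher group and no overlap; and by the same filters the 4 largest in each class where the toxicants departed in opposite directions or acetaminophen alone departed. Genes outside this rule are marked as chosen after their values were seen. 1 called member of a list is not reported here.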

Additional observations from a re-analysis of the deposited data

Results flagged for a closer look

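In a group of 4 to 10 mice, a value was listed when the gap to its nearest neighbour was over 0.625 (6 mice) or 0.71 (5 mice) of the group's range (levels as log2(CPM + 1)). Chance alone lists about 1 in 20 groups; of 196 groups examined, 22 were listed. Their causes were not tested.

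APAP 1 was listed 9 times. It was the highest acetaminophen mouse for Itih4 (3635 CPM), Mdm2 (24.8 CPM), Ppp1r15a (89.6 CPM), Gnl3 (35.98 CPM), Dusp4 (9.96 CPM), Sds (1267 CPM), Tmem243 (43.4 CPM) and Glul (1003 CPM), and the lowest for the oxidation gene Hadha (92.4 CPM). Among the other acetaminophen mice, APAP 2 was high for Hsp90aa1 (143 CPM) and Gtpbp4 (10.1 CPM), APAP 6 for Hist1h4n (2.19 CPM), and APAP 11 was low for Tcp1 (24.3 CPM).

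TAA 1 was listed 8 times, always as the highest of its group. The genes were the plasma protein genes Alb (64033 CPM), Apoa1 (29165 CPM), Ttr (4179 CPM) and Serpina1c (12467 CPM), the fatty acid genes Cyp4a10 (2786 CPM), Hadha (459.8 CPM) and Hadhb (223 CPM), and Ngfr (2.11 CPM). TAA 7 had the highest share of mitochondrially encoded counts, 24.4%.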

How the results depend on the processing

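The number of called genes and the split between sides depended on the settings. Against 367 (226 higher with thioacetamide, 141 with acetaminophen) it was 208 (117 and 91) with library totals, which moved the median of all genes to -0.16, 1159 (584 and 575) with DESeq2, 136 (105 and 31) with no filter, 1599 (753 and 846) in 1 fit with the vehicle mice, 1 in mice numbered 1 to 4, 1032 (604 and 428) in mice numbered above 4, and 64 (53 and 11, without TAA 8) to 2002 (1111 and 891, without APAP 1) with 1 mouse left out. The split was also 90 and 33, 62 and 23, and 69 and 22 without APAP 2, 4 and 6, and 55 and 12 and 63 and 19 without TAA 6 and 7. RLE factors (354), limma (519), a mean CPM of at least 5 (292), a fold change of at least 1 (279) and the number range as a covariate (249) stayed within 1.5 times. The replicate block over the numbers 1, 6 and 8 that both groups share called 0 genes in edgeR, with 992 at an unadjusted p under 0.05. The labels do not say that the numbers pair mice, and they were not taken as pairs. Deviations of same-numbered mice correlated at r = 0.156 for number 1, -0.06 for 6 and -0.0056 for 8. Replicate 1 had the fewest genes with a count of at least 1 in each group. These were 16363 with acetaminophen, 16530 with thioacetamide and 15637 with vehicle. Whether mice of the same number share a trait was not tested.

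Genes that departed with thioacetamide alone (225) numbered 118 with library totals, 618 with DESeq2, 87 with no filter, 137 at a mean CPM of at least 5, 841 in 1 fit, 141 with the number range, 1 and 754 in the lower and higher numbers, and 45 to 1207 with 1 mouse left out. Those with acetaminophen alone (25) numbered 107 with DESeq2, 42 with limma, 7 with no filter, 192 in 1 fit, 0 and 66 by number, 16 at a fold change of at least 1, and 4 to 162. Those with the same direction (100) numbered 51 with library totals, 352 with DESeq2, 157 with limma, 35 with no filter, 502 in 1 fit, 0 in the lower numbers, and 10 to 493. Those with opposite directions (14) numbered 8 with library totals, 33 with DESeq2, 7 with no filter, 0 in the lower numbers, and 4 to 47. Those called with neither (3) numbered 49 with DESeq2, 11 with limma, 0 with no filter, 23 at a mean CPM of at least 5, 48 in 1 fit, 0 and 72 by number, and 0 to 93. The cause of these changes was not tested.

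The difference in distance was 0.101 to 0.204 with 1 mouse left out and passed only without APAP 1 (exact permutation p = 0.0159); in 5 other settings with all 11 mice it was 0.0936 to 0.154 and did not pass. It was 0.0707 in the lower numbers (10 divisions) and 0.184 in the higher (p = 0.1, the smallest that 20 divisions allow, exact permutation test), where the design could not pass. Of 76 named genes called, 0 changed direction in any of 22 settings. The other called genes also kept their direction wherever they were tested, and the settings reuse the same mice. All 76 stayed called without APAP 1 and with DESeq2. With library totals 55 stayed called, 32 without TAA 6 or without TAA 8, and 0 with the replicate block and in the lower numbers. Of the named genes not called, 6 changed direction. Alb was -0.091 with library totals, -0.014 in the higher numbers and -0.076 (without TAA 1) to 0.109 with 1 mouse left out. Apoa1 was -0.033 in the higher numbers, and Serpina1c -0.049 (without TAA 1) to 0.46 with 1 mouse left out. Hspa5 was 0.30 with limma, 0.24 with the number range, 0.20 with the replicate block, 1.30 in the higher numbers and -0.41 to 0.73 (without APAP 1) with 1 mouse left out. Glul was 1.32, 0.67, 0.68 and 1.58 under the same settings and -0.66 to 2.24 (without APAP 1). Mt1 was -0.042, -0.036 and -0.036 without APAP 2, 4 and 6, and up to 1.16 without APAP 1.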

Other observations

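Other genes were taken from the 57 that stayed called in all 11 fits that left out 1 mouse, and were chosen after their values were seen. On the thioacetamide side, Polr2a, the catalytic subunit of RNA polymerase II, read 9.42 to 13.5 CPM (median 11.2) with acetaminophen, 22.1, 35.9, 33.3, 28.9 and 39.6 CPM with thioacetamide and 10.2 to 17.5 CPM with vehicle (1.48 ± 0.18, adjusted p = 0.00257, 1.52 without APAP 1). The deacetylase gene Sirt1 read 0.779 to 1.98 CPM (median 1.36) and 5.03, 5.18, 10.4, 10.2 and 8.29 CPM and was within 0.773 to 2.18 CPM with vehicle (2.50 ± 0.29, adjusted p = 0.00176, 2.49 without APAP 1). Every thioacetamide mouse lay above every other mouse in both genes. Egln3, a prolyl hydroxylase raised by hypoxia, read 4.14 to 11.5 CPM (median 6.26) and 17.5, 29.3, 34.3, 44.9 and 31.9 CPM (2.16 ± 0.29, adjusted p = 0.00448, 2.13 without APAP 1). The nucleolar GTPase gene Gtpbp4 (1.80 ± 0.21, adjusted p = 0.0018, 1.79 without APAP 1) and Tcp1, a subunit of the cytosolic chaperonin (1.10 ± 0.18, adjusted p = 0.0122, 1.11 without APAP 1), rose with thioacetamide alone. Among the genes higher with acetaminophen, the amino acid transporter genes Slc36a1 (-1.51 ± 0.24, adjusted p = 0.0105, -1.56 without APAP 1) and Sfxn1 (-0.81 ± 0.13, adjusted p = 0.0129, -0.86 without APAP 1) fell with thioacetamide alone. Slc36a1 exports amino acids from lysosomes and Sfxn1 carries serine into mitochondria.

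No list held histone genes, and they were counted after their values were seen. Of 35 tested genes with a histone symbol, 23 had a fold change above 0 and 8 were called, all higher with thioacetamide (1.61% of all genes). Nothing is read from this share, since genes at or near 0 with acetaminophen entered the test only through their level with thioacetamide. Hist1h1a read at most 0.192 CPM with acetaminophen and 4.97, 1.70, 4.71, 2.73 and 2.52 CPM with thioacetamide, Hist1h1e at most 0.229 and 1.43, 0.452, 2.56, 6.12 and 1.67 CPM, and Hist1h4c at most 0.167 and 1.30, 1.74, 4.61, 3.39 and 1.54 CPM. These 3 were taken from the 57, with fold changes of 5.74 ± 0.82, 4.41 ± 0.75 and 4.44 ± 0.58, and 5.60, 4.36 and 4.40 without APAP 1. Histone copies are near identical, and their counts are uncertain between copies. The predicted gene Gm22748 had no count in any acetaminophen or vehicle mouse and 470 to 1767 counts (29.2 to 54.0 CPM) with thioacetamide. Against 3 counts per library (at most 0.241 CPM in an acetaminophen library), its mean with thioacetamide was at least 175-fold higher.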
